A study of Homo sapiens with 3 samples.

Results

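The genes described here are those of cholesterol and fatty acid synthesis, with their sterol-sensing regulators and a few genes of fat storage and breakdown. They were taken as a list of 38 symbols, 22 of the sterol branch and 16 of the fatty acid branch, and every probe set that names exactly 1 gene was used if that gene was on the list. This gave 92 of 44988 such probe sets, for 35 of 18132 genes (20 sterol, 15 fatty acid). FDFT1, ACSL3 and CYP51A1 had no such probe set and were not analysed here. All 35 genes had at least 1 probe set above the signal filter of 5.85 (log2), which 86 of their 92 probe sets passed.

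The cells were FaDu, an established squamous carcinoma line of the hypopharynx, kept in RPMI 1640 with 10% fetal calf serum. NSC-631570, an extract of greater celandine (Chelidonium majus), was given at 10 µg/ml for 48 h, and controls received distilled water for the same time. Total RNA was hybridised to PrimeView arrays, 2 from untreated cells and 1 from treated cells, and each value is the log2 signal of 1 probe set on 1 array. The treated condition has no replicate and the labels do not say that the untreated arrays came from separate cultures, so the spread used in every test is that between 2 untreated arrays, which may be technical.

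Cells make cholesterol from acetyl-CoA by way of mevalonate, squalene and lanosterol, and fatty acids from acetyl-CoA by way of malonyl-CoA. Both routes are switched on by the same family of membrane-bound transcription factors, encoded by SREBF1 and SREBF2. When membranes are short of sterol, the escort protein SCAP carries these factors from the endoplasmic reticulum to the Golgi, where they are cut free and enter the nucleus. INSIG proteins hold SCAP back when sterol is plentiful. Growing carcinoma cells use both routes to build membranes.

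The epithelial identity of the cells was visible in all 3 arrays: of 10 squamous markers listed, 7 had probe sets of their own and all 7 passed the filter, between 6.54 for PKP1 in untreated 2 and 13.96 for SFN in the treated array. Of 6 fibroblast markers 2 passed the filter, of 4 adipocyte markers 2, and of 3 hepatocyte markers 2, with the leukocyte gene PTPRC at 3.72, 3.71 and 3.78, FABP4 at 4.24, 4.28 and 4.28 and ALB at 4.78, 5.02 and 5.11 in untreated 1, untreated 2 and the treated array. Other markers on such lists were brighter: ADIPOQ read 7.37, 7.55 and 7.31 and TTR 6.42, 6.29 and 5.88. The endothelial CDH5 read 7.54, 7.79 and 7.40 and the leukocyte gene CD79A 7.07, 6.93 and 6.94. On the mean of all arrays ADIPOQ (7.41) and CDH5 lay above the squamous PKP1 (7.30). All 3 endothelial markers and 3 of 4 leukocyte markers passed the filter too. Among the latter the lysosomal gene CD68, which epithelial cells also express, read 7.61, 8.55 and 9.53, and its part in the results was not tested. The 5′ control probe set of ACTB read 13.61, 13.60 and 12.23 in untreated 1, untreated 2 and the treated array, 2.59-fold lower under treatment, while its 3′ probe set read 14.19, 14.21 and 14.40. For GAPDH the 5′ probe set was 1.39-fold lower. The part of these lower 5′ readings in the results below was not tested. In RNA from whole cultures, fewer cells of a kind and less RNA per cell cannot be told apart.

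On the brightest probe set of each gene, the sterol branch split by role. The 5 regulators all lay above the untreated mean, with a median log2 difference of 0.32, while 11 of the 14 enzymes between acetyl-CoA and cholesterol lay below it, with a median of −0.15. The median over all 11932 tested genes was 0.12, with 4059 below and 7873 above the untreated mean. Setting the arrays to one median across these tested genes moved the median of all genes to −0.08, that of the enzymes to −0.34 and that of the regulators to 0.13, so the order of the groups stayed while the height of 0 did not. None of the 35 genes passed limma's threshold (adjusted p of 0.05), which 0.067% of all tested genes passed (0.0251% as lower, 0.0419% as higher). None lay 2-fold below or above both untreated arrays, as 0.235% and 0.88% of all tested genes did. At an unadjusted p under 0.05, 3 were higher (SCAP, SREBF1 and PLIN2) and none was lower, where 12.2% of all tested genes were higher and 2.24% lower. The treated value lay below both untreated values for 9 of the 14 enzymes and above both for 2, against 22.5% and 51.6% of all tested genes.

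**Figure D1:**
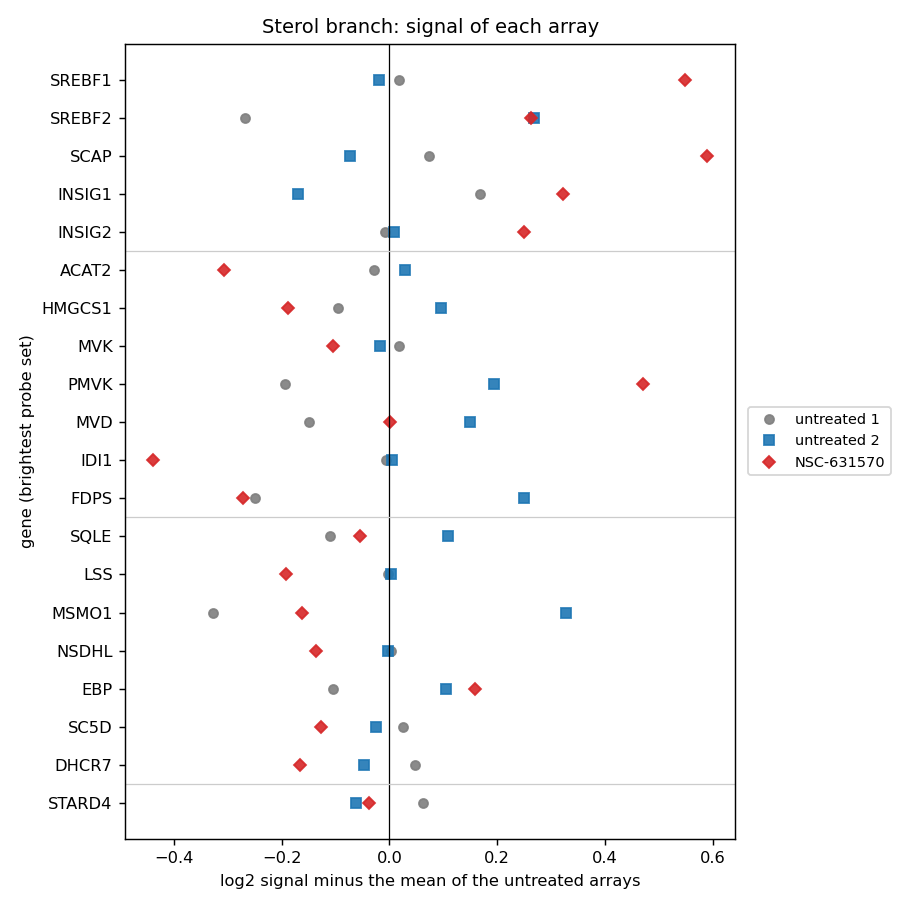
Log2 signal of each array minus the mean of the untreated arrays (x axis) for the brightest probe set of 20 sterol branch genes (rows, grouped by regulators, mevalonate steps, squalene to cholesterol, and transport); grey circles are untreated 1, blue squares untreated 2 and red diamonds the treated array. The treated array lies right of both untreated arrays for 4 of 5 regulators and left of both for 9 of 14 enzymes.

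Among the regulators, SCAP gave the clearest reading. Its brightest probe set read 9.36 in untreated 1, 9.21 in untreated 2 and 9.87 in the treated array (log2 difference 0.59 ± 0.22, SE from limma, 1.51-fold, adjusted p = 0.276). Its other probe set read 9.34, 9.24 and 9.80. On both probe sets the treated value lay above both untreated values, by more than the gap between those values. INSIG2, the other INSIG form, read 9.16, 9.18 and 9.42, and its 3 probe sets differed by 0.25, 0.13 and 0.27 from the untreated mean, each above both untreated values. INSIG1, itself a sterol-regulated gene, read 11.03, 10.69 and 11.18 on its brightest probe set (log2 difference 0.32 ± 0.24, adjusted p = 0.616). That is above both untreated values, though the difference is smaller than the gap between them (0.34), and its dimmest probe set stood at −0.08, between them.

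The 2 genes for the transcription factors themselves were less uniform. SREBF1, whose product is the main activator of fatty acid synthesis genes, read 10.11, 10.07 and 10.64 on its brightest probe set (log2 difference 0.55 ± 0.21, 1.46-fold, adjusted p = 0.297). Its other probe sets read 9.03, 8.77 and 8.80, with the treated value between the untreated ones, and 7.76, 7.32 and 6.69, with the treated value below both (−0.85 ± 0.26, adjusted p = 0.135 among all probe sets). The 3 probe sets of SREBF1 thus pointed in different directions, and their mean differed by −0.13. SREBF2, whose product mainly drives sterol synthesis, read 9.21, 9.75 and 9.74 (0.26 ± 0.27, adjusted p = 0.748). The treated value lay between the untreated values on all 3 of its probe sets.

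In the mevalonate steps, 5 of 7 enzymes lay below both untreated arrays. IDI1, which isomerises the isoprenoid building block, read 10.35 in untreated 1, 10.36 in untreated 2 and 9.92 in the treated array (log2 difference −0.44 ± 0.21, 1.36-fold lower, adjusted p = 0.406). Its other probe set read 10.03, 10.41 and 9.83. ACAT2, the thiolase that joins 2 acetyl-CoA units, read 10.10, 10.15 and 9.82 (−0.31 ± 0.21, adjusted p = 0.59). The 3 probe sets of ACAT2 gave nearly one value, −0.31, −0.26 and −0.30, each below both untreated arrays.

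HMGCS1, which makes the precursor of mevalonate, read 10.75, 10.94 and 10.66 on one probe set and 10.97, 10.94 and 10.33 on the other, a difference of −0.19 on the first and −0.63 on the second. MVK, mevalonate kinase, read 8.79, 8.76 and 8.67, and 7.46, 8.06 and 6.79 on its dimmer probe set (−0.97 ± 0.29, adjusted p = 0.128 among all probe sets). Both genes had every probe set below both untreated values, with sizes that differed between probe sets. FDPS, farnesyl diphosphate synthase, read 10.94, 11.44 and 10.92, so that the treated value was almost that of untreated 1 and the difference of −0.27 came from untreated 2. MVD, the decarboxylase, read 8.59, 8.89 and 8.74, between the untreated arrays. PMVK, phosphomevalonate kinase, went the other way on its brightest probe set with 7.53, 7.92 and 8.20 (0.47 ± 0.24, adjusted p = 0.439), and its dimmest stood at −0.18.

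Between squalene and cholesterol, 4 of 7 enzymes lay below both untreated arrays and only EBP lay above both on the brightest probe set. LSS, which closes the sterol rings, read 8.26, 8.27 and 8.07 (log2 difference −0.19 ± 0.21, adjusted p = 0.773), and its other probe sets stood at −0.37 and −0.78. All 3 probe sets of LSS lay below both untreated arrays. NSDHL, which removes a carbon during demethylation, read 8.79, 8.79 and 8.66 on its only probe set (−0.14), and DHCR7, which makes cholesterol from its last precursor, read 10.59, 10.50 and 10.38 (−0.16). These differences were small, and limma's standard errors of 0.21 and 0.22 were larger than either.

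MSMO1, the methylsterol oxidase, separated by probe set: the brightest read 10.81, 11.46 and 10.97, between the untreated values, the next 10.12, 10.54 and 9.42 (−0.91 ± 0.25, adjusted p = 0.113 among all probe sets) and the third 9.18, 10.15 and 8.70. SQLE, squalene epoxidase and a control point of the route, read 11.86, 12.08 and 11.92 on its brightest probe set, and on 3 of its 4 probe sets the treated value lay between the untreated ones. SC5D, a late desaturase, differed by −0.13 to 0.10 over 4 probe sets, 2 on each side of the untreated arrays. EBP, the sterol isomerase, read 11.83, 12.04 and 12.10 (0.16 ± 0.22) and lay above both untreated values on both probe sets. STARD4, which carries sterol between membranes, read 8.23, 8.10 and 8.13 on its brightest probe set, while its 4 dimmer ones ranged from −0.94 to 0.07.

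The start regions of these genes are shown because this pathway is known to be regulated through sites in such regions. SREBF factors act at their targets beside NF-Y, which binds the CCAAT box. RefSeq promoter entries of GRCh38.p14 were available for 31 of the 35 genes, and the 250 bases before each start were searched on both strands for the CCAAT box (read as ATTGG on the other strand), for the sterol regulatory element TCACNCCAC and for the E-box CACGTG. The CCAAT box was found for 11 of 12 sterol enzymes with an entry, and 9 of the 12 held it at least 2 times, in any of a gene's start regions. Over all 35116 regions of that length, 32% held CCAAT and 9.53% held it at least 2 times, or 37% and 11.5% of genes when any region of a gene counts. The regulators held it in 2 of 5 genes, SREBF2 and INSIG1, and the fatty acid branch in 5 of 13. The sterol regulatory element was found for 2 of the 31 genes (SREBF2 and ACSL1), against 0.883% of all regions and 1.09% of all genes in any region. It was found for 0 of the 12 sterol enzymes. Only matches to this string within the 250 bases were counted, so this count cannot show that these genes lack such elements. CACGTG was found for 5 of the 31 genes (SCAP, INSIG1, SC5D, ELOVL5 and PLIN2), against 6.34% of all regions and 7.73% of all genes in any region. Such a match is a string of letters and not a measured binding site. The sterol enzymes with several tested probe sets, all below both untreated arrays, and with a RefSeq entry (HMGCS1, IDI1, LSS and MVK) are printed. Each is shown by the window with the most CCAAT matches. SCD, 1 of 4 fatty acid genes that did the same, is printed too, and so is SREBF2, which holds both motifs. The others of these fatty acid genes, ACLY, ACACA and ELOVL5, each with up to 2 CCAAT matches in a window, are not printed. Each runs 5′ to 3′ on the gene's strand and ends at the base before the start. Capitals mark CCAAT or ATTGG and, in SREBF2, also the sterol regulatory element TCACCCCAC. In IDI1 a forward and a reverse match overlap in one capital run.
HMGCS1 promoter, chr5:43313413-43313662, minus strand: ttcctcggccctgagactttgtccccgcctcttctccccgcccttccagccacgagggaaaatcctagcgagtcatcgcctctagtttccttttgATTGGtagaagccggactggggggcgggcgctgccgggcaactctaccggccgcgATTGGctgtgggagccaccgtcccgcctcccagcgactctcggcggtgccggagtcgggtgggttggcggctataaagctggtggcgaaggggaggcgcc
IDI1 promoter, chr10:1048887-1049136, minus strand: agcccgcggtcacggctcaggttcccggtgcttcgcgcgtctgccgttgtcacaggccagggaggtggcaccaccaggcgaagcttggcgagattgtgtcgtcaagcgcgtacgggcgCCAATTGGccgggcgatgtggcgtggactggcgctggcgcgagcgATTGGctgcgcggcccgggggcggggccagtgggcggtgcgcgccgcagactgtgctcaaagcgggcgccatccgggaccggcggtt
LSS promoter, chr21:46228775-46229024, minus strand: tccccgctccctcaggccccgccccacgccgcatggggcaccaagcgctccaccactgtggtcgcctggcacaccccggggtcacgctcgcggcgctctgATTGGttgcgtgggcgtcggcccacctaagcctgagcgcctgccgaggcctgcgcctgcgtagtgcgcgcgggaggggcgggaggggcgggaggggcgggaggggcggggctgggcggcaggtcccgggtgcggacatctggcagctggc
MVK promoter, chr12:109573544-109573793, plus strand: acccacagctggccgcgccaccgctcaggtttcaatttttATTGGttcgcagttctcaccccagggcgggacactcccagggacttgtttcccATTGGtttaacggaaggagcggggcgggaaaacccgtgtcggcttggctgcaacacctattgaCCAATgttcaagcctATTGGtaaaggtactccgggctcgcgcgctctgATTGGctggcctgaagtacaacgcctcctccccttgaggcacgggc
SCD promoter, chr10:100346983-100347232, plus strand: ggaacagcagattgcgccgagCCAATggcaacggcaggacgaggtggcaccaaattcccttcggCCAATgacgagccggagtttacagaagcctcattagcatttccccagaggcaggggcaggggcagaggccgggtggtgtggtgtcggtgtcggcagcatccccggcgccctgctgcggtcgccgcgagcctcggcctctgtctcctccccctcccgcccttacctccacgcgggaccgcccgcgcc
SREBF2 promoter, chr22:41832855-41833104, plus strand: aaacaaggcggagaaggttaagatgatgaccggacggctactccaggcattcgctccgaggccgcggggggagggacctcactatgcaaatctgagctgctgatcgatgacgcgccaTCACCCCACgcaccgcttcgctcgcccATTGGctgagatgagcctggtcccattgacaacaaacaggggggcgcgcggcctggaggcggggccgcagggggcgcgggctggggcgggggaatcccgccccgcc

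MVK holds 5 matches, the first beginning 210 bases and the last 46 bases before the start. HMGCS1 holds 2, beginning 155 and 100 bases before the start, and LSS holds 1, beginning 150 bases before it. HMGCS1 has another RefSeq start with 0 matches, and IDI1, printed with 3, has others with 2 and 0. In SREBF2 the sterol regulatory element begins 133 bases before the start and the CCAAT box 106. Of the 6 sterol branch genes that lay above both untreated arrays on their brightest probe sets, INSIG1 holds 1 match and EBP 3, and SREBF1, SCAP, INSIG2 and PMVK hold 0. Of those between the untreated arrays, MVD holds 3, MSMO1 4, STARD4 2 and SREBF2 1, and SQLE has no entry. SREBF1, SCAP and INSIG2 are regulators, so role and direction cannot be told apart in these counts. A link between matches and direction was not tested.

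The fatty acid branch did not lean to one side of the untreated mean on the brightest probe sets. Of 15 genes 7 lay below and 8 above it, with a median log2 difference of 0.09, where 4059 and 7873 of all 11932 tested genes did. The treated value was below both untreated values for 6 genes and above both for 5, against 22.5% and 51.6% of all tested genes. The sign of this median was not stable, being 0.06 against untreated 2, −0.04 against untreated 1 and −0.25 when all probe sets of a gene were averaged. The sterol branch as a whole, with a median of −0.08, also turned, to 0.02 against untreated 1 alone, whereas the sterol enzymes kept their sign against either array (−0.11 and −0.16).

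**Figure D2:**
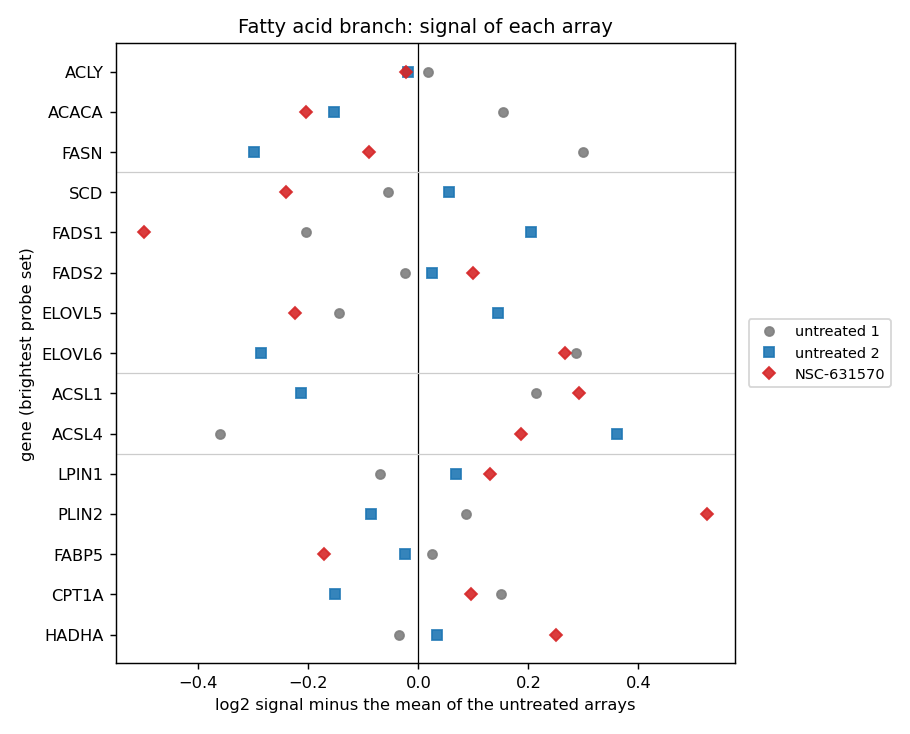
Log2 signal of each array minus the mean of the untreated arrays (x axis) for the brightest probe set of 15 fatty acid branch genes (rows, grouped by synthesis, desaturation and elongation, acyl-CoA synthetases, and storage, binding and breakdown), with symbols as in the plot of the sterol branch. PLIN2 lies farthest to the right and FADS1 farthest to the left.

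ACLY, ACACA and FASN carry citrate to palmitate. ACLY, which cuts citrate into acetyl-CoA, read 11.94, 11.91 and 11.90 on its brightest probe set and 9.99 in untreated 1, 10.04 in untreated 2 and 8.89 in the treated array on the other, which fell by 1.12 on the log2 scale (adjusted p = 0.0425 by limma among 27249 probe sets). ACACA, the carboxylase that commits acetyl-CoA to fat, read 10.51, 10.20 and 10.15 on its brightest probe set, and 7.46, 7.27 and 6.31 on its dimmest (−1.05 ± 0.23, adjusted p = 0.0544). All 3 probe sets of ACACA and both of ACLY lay below both untreated arrays. FASN, the fatty acid synthase, read 10.45, 9.85 and 10.06, between the untreated values.

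Desaturases and elongases held the lowest 2 of the 86 probe set differences. SCD, which puts the first double bond into saturated fatty acids, read 12.79, 12.90 and 12.60 on its brightest probe set (log2 difference −0.24 ± 0.22, adjusted p = 0.699). Its other 3 read 10.31, 10.51 and 9.74, 10.45, 10.34 and 9.11, and 10.11, 10.33 and 9.35. All 4 probe sets of SCD lay below both untreated arrays, and the one with a treated value of 9.11 fell by 1.28 (2.43-fold, adjusted p = 0.0292 among all probe sets). ELOVL5, which lengthens polyunsaturated fatty acids, read 11.98, 12.27 and 11.90 on the brightest probe set (−0.22 ± 0.23) and 10.08, 10.32 and 8.76 on the other, which fell by 1.44 (2.70-fold, adjusted p = 0.0237).

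FADS1, a front-end desaturase of polyunsaturated fatty acids, read 10.82, 11.23 and 10.52 (−0.50 ± 0.25, 1.41-fold lower, adjusted p = 0.417), and 10.12, 10.78 and 9.93 on the next probe set. Its dimmest read 9.83, 10.42 and 10.38, between the untreated values. FADS2, its partner desaturase and neighbour on the chromosome, read 8.01, 8.05 and 8.13 (0.10 ± 0.21), with 2 tested probe sets above and 1 below the untreated arrays. ELOVL6, which lengthens palmitate, read 8.83, 8.25 and 8.81, inside the untreated range, and 7.66, 7.71 and 8.16 on its other tested probe set (0.47 ± 0.22, adjusted p = 0.312). The desaturation and elongation genes thus went both ways, with SCD, ELOVL5 and FADS1 on the low side.

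Acyl-CoA synthetases, which activate fatty acids for use, lay within or just above the untreated arrays. ACSL1 read 9.06, 8.63 and 9.14, and 6.59, 6.04 and 5.53 on its dimmer probe set, so its probe sets lay on opposite sides. ACSL4, which prefers arachidonate, read 8.64, 9.36 and 9.19, between untreated values that were 0.72 apart.

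Of the genes for storing, binding and burning fat, PLIN2, a coat protein of lipid droplets, read 9.06, 8.89 and 9.50 (log2 difference 0.52 ± 0.22, 1.44-fold, adjusted p = 0.333), above both untreated arrays. Its other probe set read 8.19, 7.83 and 8.15, between them. HADHA, a subunit of the mitochondrial trifunctional protein of fatty acid oxidation, read 10.92, 10.98 and 11.20 on its brightest probe set, and 10.21, 10.47 and 9.25 on the next (−1.09 ± 0.23, adjusted p = 0.0541 among all probe sets). CPT1A, the gate of fatty acid entry into mitochondria, read 11.55, 11.24 and 11.49, and 8.84, 8.55 and 7.85 on its other probe set. For HADHA, CPT1A and LPIN1 a bright probe set near or above the untreated level stood beside a dimmer one below both arrays. LPIN1, the phosphatidate phosphatase, read 9.20, 9.34 and 9.40 on the brightest and 6.48, 6.58 and 5.82 on the dimmest. FABP5, the epidermal fatty acid binding protein, read 11.87, 11.82 and 11.67 on its only probe set (−0.17 ± 0.21), below both.

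Read one by one, 45 of the 86 tested probe sets lay below both untreated arrays and 23 above both, where 34.5% and 40.7% of all tested probe sets did. Past limma's threshold over all 27249 probe sets were 3 of them, 1 each of ELOVL5, SCD and ACLY, all lower, and the same 3 were at least 2-fold below both untreated arrays. Among all probe sets 2.93% passed (2.38% as lower, 0.554% as higher), and 2.57% lay at least 2-fold below and 0.646% at least 2-fold above both arrays, so 3 of 86 is near the background. At an unadjusted p under 0.05, 18 of the 86 were lower and 3 higher, where 9.55% and 8.31% of all probe sets were. By branch the counts below and above both arrays were 25 and 15 of 52 in the sterol branch and 20 and 8 of 34 in the fatty acid branch.

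**Figure D3:**
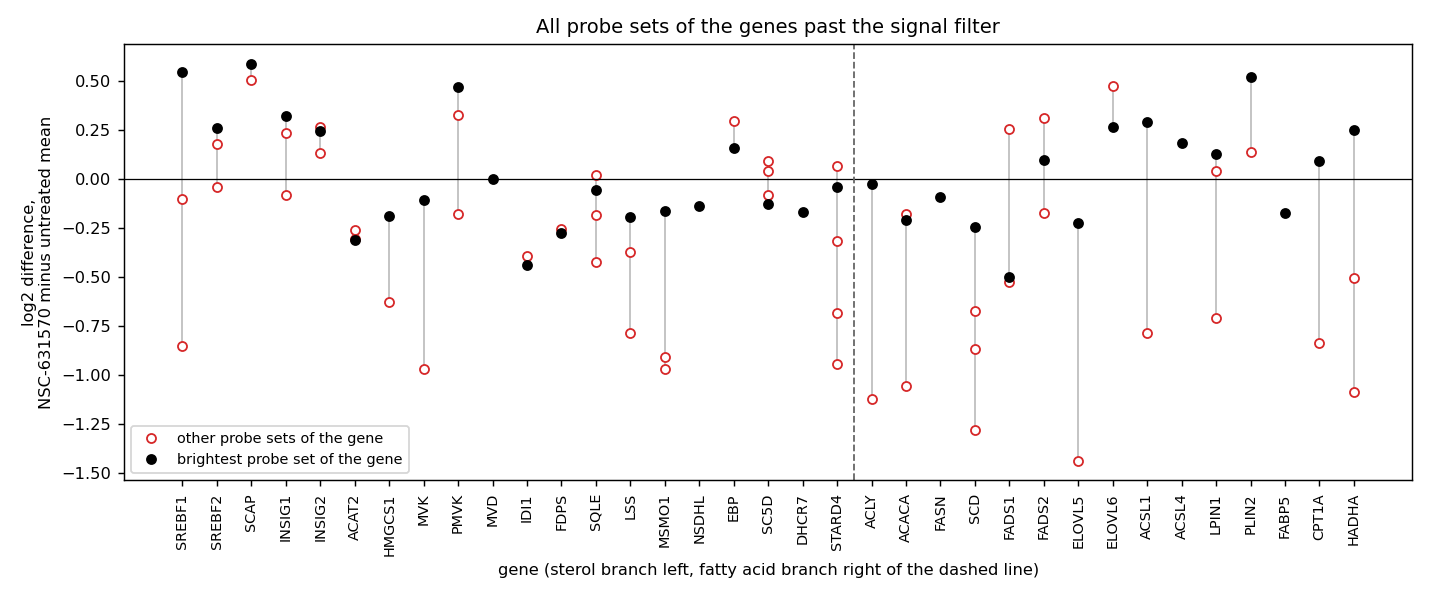
Log2 difference between the treated array and the untreated mean (y axis) for each of the 86 tested probe sets, by gene (x axis), with the brightest probe set of a gene filled in black, the others as open red circles and a grey line joining them. The lowest open circle is ELOVL5 at −1.44, and the lowest filled one is FADS1 at −0.50.

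The probe sets of a gene often gave unlike answers. Of 29 genes with several tested probe sets, 7 had probe sets at least 1 log2 unit apart (14.9% of all 7124 genes with several), 2 of 17 in the sterol and 5 of 12 in the fatty acid branch. The median of the dimmer probe sets was lower than the brightest one for 22 of the 29, and for 69.9% of all such genes. Over all 29, lower or not, dimmer minus brightest had a median of −0.38, and over all 7124 genes −0.15. The lower readings on dimmer probe sets came from the same treated array whose 5′ ACTB control was 2.59-fold lower, and the place of each probe set along its transcript was not used here. Every tested probe set lay below both untreated arrays for 9 genes (ACAT2, HMGCS1, MVK, IDI1, LSS, ACLY, ACACA, SCD and ELOVL5), where 11.9% of all 7124 genes did so. It lay above both for 3 (SCAP, INSIG2 and EBP), where 18% did, and probe sets fell on opposite sides for 8, where 31.6% did.

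**Figure D4:**
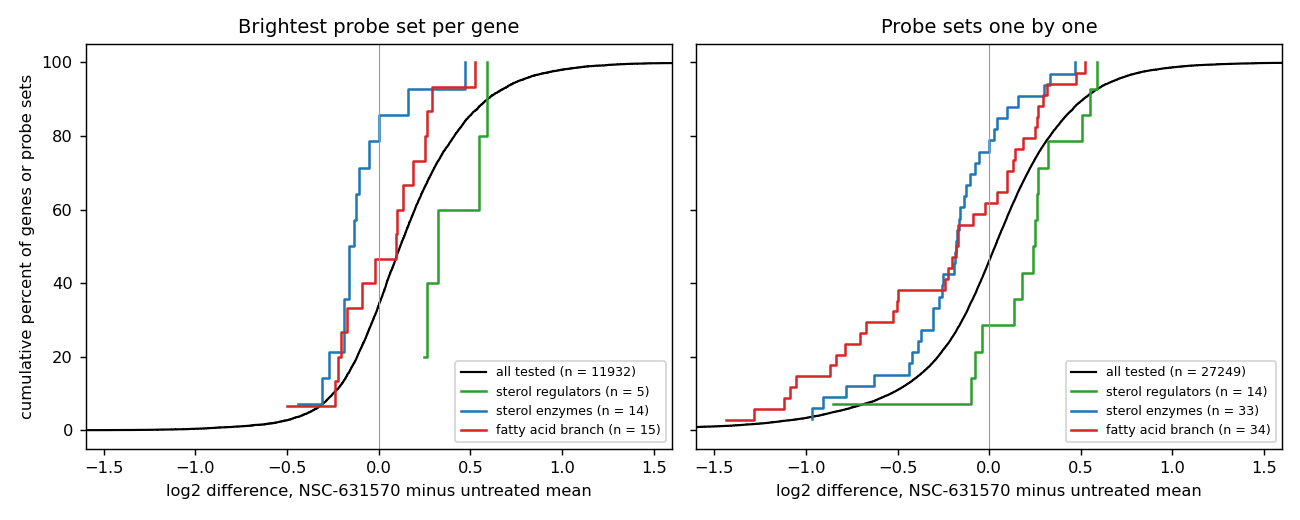
Cumulative percent (y axis) of log2 differences between the treated array and the untreated mean (x axis), for all tested genes or probe sets (black), sterol regulators (green), sterol enzymes (blue) and the fatty acid branch (red), by the brightest probe set of each gene on the left and for probe sets one by one on the right. The enzymes run left of the black curve over most of their range in both panels, and the fatty acid branch does so mainly in the right panel, where its lowest value is −1.44.

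Other lipid genes that are not on the list of 38 gave another balance than the members, nearer that of all tested genes. Of all tested genes 51.6% lay above both untreated arrays and 22.5% below both, with a median log2 difference of 0.12. Of 77 tested in 5 lists, 46 lay above both untreated arrays and 14 below both, with a median of 0.15 and none past limma's threshold. ABCG1, counted among the 46 and in this median, was tested only because of its treated signal. Other genes of sterol synthesis and SREBF processing (11 tested) all lay above the untreated mean, as did 7873 of all 11932 tested genes. Their median was 0.24, unlike that of the enzymes above. The count above the untreated mean was 6 of 11 with the arrays set to one median across the tested genes, and 7 of 11 with the mean of all probe sets. The farthest from the nearer untreated array was MBTPS1, the Golgi protease that makes the first cut in SREBF proteins, at 8.95, 9.32 and 9.89 (log2 difference 0.76). Its other probe set read 7.93, 8.05 and 6.74 and fell by 1.25 (adjusted p = 0.0318 among all probe sets). DHDDS, of dolichol synthesis, stood at 0.43 with its other probe set at −0.16, and RNF139, a ubiquitin ligase of sterol metabolism, at 0.27. With the probe sets of each gene averaged, MBTPS1 stood at −0.25, DHDDS at 0.14 and RNF139 at 0.076. For RNF139 that mean took in readings below the filter.

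Genes for moving sterol out of the cell lay near the signal filter in the untreated arrays. ABCA1, the transporter that loads cholesterol onto apolipoproteins, read 6.51 in untreated 1, 5.23 in untreated 2 and 7.32 in the treated array (log2 difference 1.44 ± 0.45, 2.72-fold, adjusted p = 0.21). ABCG1, which exports sterol to lipoprotein particles, read 6.29, 5.29 and 7.03. Its untreated mean of 5.79 lay below the filter value, so that it was tested only because of its treated signal, and its test is not given. Both lay above both untreated arrays, but untreated 2 lay far below untreated 1 for both, and against untreated 1 alone the differences were 0.81 and 0.74. NR1H3, the sterol-sensing receptor that switches on both, read 6.10, 6.38 and 6.80 (0.55). The signals of ABCA1 and ABCG1 in untreated 2 lay below the filter value of 5.85. The list of 17 uptake, trafficking, esterification and efflux genes, ABCG1 included, had 11 above both arrays, as 51.6% of all tested genes were. Its median was 0.32 over 17 genes on the brightest probe sets and −0.03 over 14 genes with the mean of all probe sets. ABCA1 and ABCG1 were not among those 14, so the 2 medians are of unlike sets of genes.

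Among fatty acid oxidation and PPAR genes, 12 of 18 lay above both untreated arrays and 5 below both, where 51.6% and 22.5% of all tested genes did. ANGPTL4, a lipoprotein lipase inhibitor and PPAR target, read 6.34, 6.01 and 7.52 (log2 difference 1.34 ± 0.24, 2.53-fold, adjusted p = 0.09). Its single probe set passed among all probe sets (adjusted p = 0.0333) and so rose by that test. At the gene level it passed with the arrays set to one median over all probe sets (adjusted p = 0.0301) and without probe sets of shared sequence (0.0471), settings in which 136 and 121 genes passed against 8. It did not pass under the other alternatives in which it was tested, with adjusted p from 0.0728 with a variance trend to 0.16 with quantile normalization. ACAA2, the mitochondrial thiolase, read 7.71, 8.07 and 8.96 (1.07 ± 0.24, adjusted p = 0.132), and ACADS, a short-chain acyl-CoA dehydrogenase, stood at 0.55.

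Of 17 other genes of fatty acid synthesis and modification, 8 lay above both arrays and 6 below, where 51.6% and 22.5% of all tested genes did. ACSS2, which makes acetyl-CoA from acetate and is a known SREBF target, read 7.07, 7.59 and 8.54 (1.21 ± 0.27, 2.31-fold, adjusted p = 0.131). No other probe set of ACSS2 passed the filter. Averaged with its readings below the filter, ACSS2 stood at 0.47 (adjusted p = 0.384). MID1IP1 stood at 0.78, and SCD5, a paralogue of SCD, at 0.76, with its 2 other tested probe sets at −0.32 and −0.16. The mean over all probe sets of SCD5, also those below the filter, stood at 0.046. Of 14 glycerolipid and lipid droplet genes, 7 lay above both arrays and 2 below, beside the same 51.6% and 22.5% of all tested genes. AGPAT1, an acyltransferase of phosphatidate synthesis, stood at 0.59 on its brightest probe set, while its 3 others lay below both untreated arrays. DGAT1, which makes triglyceride, stood at 0.58 (0.25 when averaged with its readings below the filter) and LPIN3 at 0.41.

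**Figure D5:**
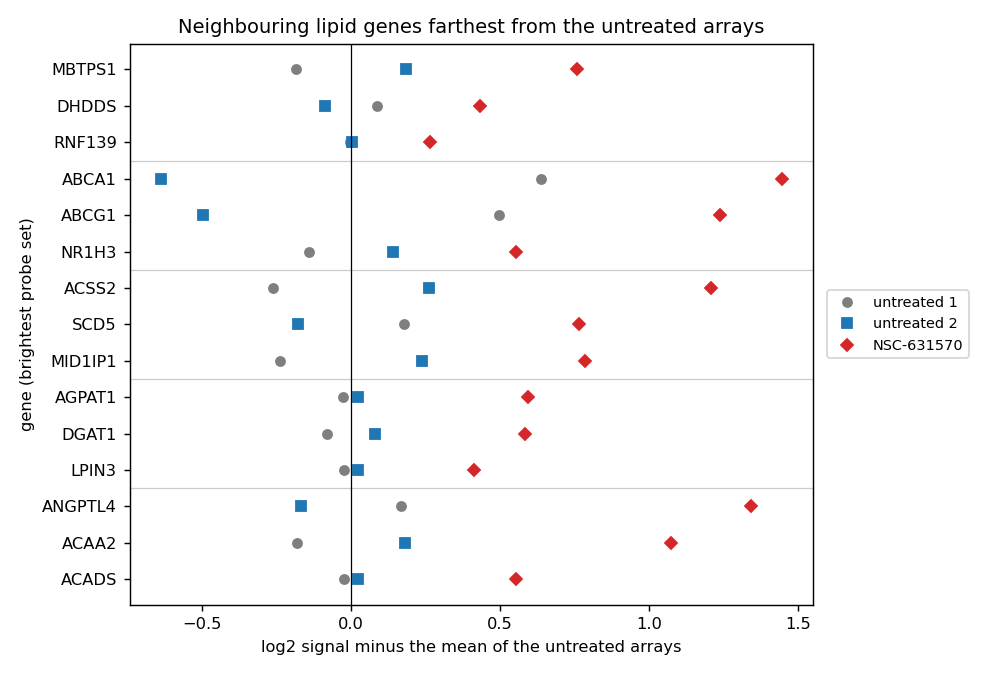
Log2 signal of each array minus the mean of the untreated arrays (x axis) for the 3 genes of each of 5 lists (rows, divided by grey lines) whose treated value lies farthest from the nearer untreated array, on the brightest probe set, with symbols as in the plot of the sterol branch. All 15 lie to the right of both untreated arrays, and the untreated arrays are farthest apart for ABCA1 (1.28).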

How the data were processed

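RNA of FaDu cells was measured on 3 PrimeView arrays. The authors deposited log2 signals, for which the submitters' processing notes name Affymetrix Expression Console. Its version, algorithm and normalization are unstated in the sources used here. The log2 scale was read from the values (2.92 to 14.95; array medians 6.62, 6.57 and 6.55), which were used as deposited. The platform annotation named 1 gene for 44988 of 49395 probe sets, several for 1832 and none for 2473, and 102 were array controls.

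Each gene was represented by its brightest probe set (mean of 3 arrays). Genes whose brightest probe set was under the 40th percentile of signal were dropped, leaving 11932, and the same limit left 27249 probe sets for a fit of their own. limma (version 3.58.1, R 4.3.3) was run on each table, with Benjamini-Hochberg adjustment over the whole table. There is 1 residual degree of freedom, with 6.90 prior ones (prior SD 0.19) at the gene level, and the lone treated array is taken to have the spread of the untreated pair. The number of arrays limits the precision. On simulated arrays for this comparison (11932 genes), 50 genes each were changed 2-, 4-, 8- and 16-fold. Of these, 20 of 50 changed 2-fold and 50 of 50 changed 4-fold were recovered, with 17 unchanged genes called. The strongly changed genes made the adjusted threshold easier to reach. In the measured data only 8 genes passed, so recovery of 2-fold changes may be lower there than simulated.

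The members, their roles and the lists were chosen with earlier results of these data known. The rule for named genes took the 10 of each branch farthest from the nearer untreated array, SREBF2, and the 3 farthest of each other list. Readings of the remaining members are given as description. Alternatives were other scalings and filters, averaging the probe sets of each gene (also those below the filter), a variance trend, and leaving out each untreated array.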

Additional observations from a re-analysis of the deposited data

How the results depend on the processing

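Of 208 values for 21 named members under the alternatives, 10 turned. Many of the others could not: the filters and the variance trend leave a gene's difference as it is, and a member outside both untreated arrays keeps its sign against either one. The median of the sterol enzymes, −0.15, stayed below 0 under every alternative run, and that of the sterol regulators, 0.32, stayed above 0. The medians of the whole branches were less stable.

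With quantile normalization 4 genes passed, against 8, and the sterol branch median was −0.11. With one median over all probe sets 136 genes passed (25 lower, 111 higher), and the medians were −0.037 for the sterol branch, 0.14 for the fatty acid branch, 0.36 for the regulators, 0.19 for the other lipid genes and 0.16 for all genes. With one median over the tested genes 50 passed (29 lower, 21 higher), 11 member probe sets passed against 3, and 6 members lay above both arrays against 11. The medians were then −0.28 (sterol), −0.10 (fatty acid), −0.34 (sterol enzymes), 0.13 (regulators), −0.049 (other lipid genes) and −0.079 (all genes), with FADS2 at −0.097 and LPIN1 at −0.066.

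Without a filter 4 genes passed and the median of all genes was 0.073, with a filter at the 60th percentile 21 and 0.14, and with a variance trend 31 passed. Averaging all probe sets of each gene, also those below the filter, left 10604 genes tested. Of these 3 passed, and 6 members lay above both arrays. The medians were −0.15 (sterol), −0.25 (fatty acid), 0.16 (regulators), 0.046 (other lipid genes) and 0.035 (all genes). SREBF1 stood at −0.13, HADHA at −0.45, ACSL1 at −0.25, FADS2 at −0.062 and LPIN1 at −0.18. The 3 tested probe sets of FADS2 stood at 0.10, 0.31 and −0.17, and the 1 below the filter at −0.49. Leaving out probe sets whose names mark shared sequence, an alternative chosen after seeing the data, left 30 of the 35 members tested. SCD and ACLY, whose probe sets all bear such names, dropped out. There 121 genes and 1 member (ELOVL5) passed. The medians were −0.055 (sterol), −0.090 (fatty acid), 0.26 (regulators), 0.099 (other lipid genes) and 0.092 (all genes), with ACSL1 at −0.78 and FADS2 at −0.17. At an unadjusted p under 0.05, 3 members passed.

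Without either untreated array the fit has no test. The medians ranged from −0.11 to 0.017 (sterol), −0.040 to 0.061 (fatty acid), 0.49 to 0.52 (regulators) and 0.17 to 0.18 (other lipid genes), and SREBF2 from −0.0060 to 0.53. The causes of these shifts were not tested. No paired analysis was possible because the treated condition has 1 array.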
